A study of Mus musculus with 3 samples.

Results

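The RAF, MEK and ERK kinases described here are Araf, Braf, Map2k1, Map2k2 and Mapk3, 5 of the 32285 genes counted in single cells of mouse bone marrow. They were found by gene symbol, and their mRNA was followed in each library and in each cell population gated by marker genes. Droplet single-cell RNA sequencing with 3' tags was carried out on 1 library from each of 3 genotypes. The Lztr1 knockout library came from Lztr1fl/fl mice with Mx1-Cre, and the Rit1-M90I library from Rit1M90I/+ mice with Mx1-Cre. The control library came from Rit1M90I/+ mice without Cre, which its title also calls wild type, so the control carries the Rit1 allele without Cre. Mice of every genotype were injected at 8 weeks of age with 3 doses of 12 mg/kg pIpC, a double-stranded RNA that induces interferon and so the Mx1 promoter that drives Cre. Mx1-Cre acts in blood cells but not in them alone, and how many mice gave each library is not stated in the labels. Cre is carried by both mutants and not by the control, so its own effect and that of a mutation cannot be told apart. Marrow was taken 4 weeks later, and live cells negative for CD3, CD11b, Gr1, B220 and Ter119 were sorted. Such a sort enriches for stem and progenitor cells, but cells gated as T cells and as basophils and mast cells also remained.

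RAF, MEK and ERK kinases form a relay inside the cell. Active RAS proteins bring RAF kinases to the membrane, RAF phosphorylates MEK, and MEK phosphorylates ERK, which then acts on transcription factors and other kinases. In the marrow the relay lies downstream of cytokine receptors such as Kit and the receptors for interleukin 3 and erythropoietin. RIT1 belongs to the RAS superfamily of small GTPases, and LZTR1 brings RIT1 and some RAS proteins to a ubiquitin ligase, so both mutations of the study lie above these kinases. Their activity is set by phosphorylation, which mRNA counts do not measure.

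Araf encodes A-Raf and Braf encodes B-Raf, the kinases at the head of the relay. Araf (ENSMUSG00000001127) lies on the plus strand of GRCm38 chromosome X, from 20797814 to 20860519. Braf (ENSMUSG00000002413) lies on the minus strand of chromosome 6, from 39603237 to 39725463. Map2k1 (ENSMUSG00000004936) encodes MEK1 and lies on the minus strand of chromosome 9, from 64185770 to 64253631. Map2k2 (ENSMUSG00000035027) encodes MEK2 and lies on the plus strand of chromosome 10, from 81105915 to 81133975. Mapk3 (ENSMUSG00000063065) encodes ERK1 and lies on the plus strand of chromosome 7, from 126759601 to 126765819. The last 146 bases of Braf overlap the end of Ndufb2, a mitochondrial complex I gene on the other strand. Nothing used here says whether the authors' counting took strand into account, so Braf counts may include reads from that overlap. Map2k1 overlaps Gm48855, with 56, 163 and 133 UMIs, and Uchl4, with 35, 72 and 49 UMIs (Lztr1 knockout, Rit1-M90I, control), and Araf overlaps the end of Syn1, with at most 4 UMIs. Ndufb2 was at 218 CPM in the Lztr1 knockout, 221 CPM in Rit1-M90I and 211 CPM in the control, where CPM is the standard scaling of a gene's UMIs (distinct mRNA tags) to the same total in every library or population.

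Map2k1 and Map2k2 are paralogs whose mRNA was high in different lineages, so the 250 bases before the RefSeq start of each are printed, on GRCm38.p6 and 5' to 3' on the gene's own strand. The Map2k1 window is chr9:64253606-64253855 on the minus strand, whose last 26 bases lie inside the gene record given above, and the Map2k2 window is chr10:81105665-81105914 on the plus strand. Capitals mark matches on either strand to the GC box GGGCGG, the ETS core CCGGAA, the CCAAT box and the NRF1 core CGCATGCG.
Map2k1: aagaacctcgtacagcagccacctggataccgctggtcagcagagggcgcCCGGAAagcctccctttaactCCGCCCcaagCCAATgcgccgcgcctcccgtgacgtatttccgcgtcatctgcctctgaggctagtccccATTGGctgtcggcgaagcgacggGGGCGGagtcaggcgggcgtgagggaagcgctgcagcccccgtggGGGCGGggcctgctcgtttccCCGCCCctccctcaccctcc
Map2k2: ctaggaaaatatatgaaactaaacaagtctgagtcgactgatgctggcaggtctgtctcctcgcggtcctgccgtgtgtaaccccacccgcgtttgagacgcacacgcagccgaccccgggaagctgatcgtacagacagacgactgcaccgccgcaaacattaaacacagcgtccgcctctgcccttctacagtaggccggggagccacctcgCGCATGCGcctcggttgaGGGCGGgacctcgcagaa
The Map2k1 window held 4 GC boxes, 2 CCAAT boxes and 1 ETS core, and the Map2k2 window held 1 GC box and 1 NRF1 core. Of the 32851 windows of this length in the RefSeq table, 32.7% held a GC box, 33.8% a CCAAT box, 12.0% the ETS core and 1.55% the NRF1 core. The GATA motif was searched as AGATAA or AGATAG, and with T in the first place of each, and 26.5% of windows held one of these forms. Neither printed window did, and neither held TATAAA, present in 12.4%. Windows were found for 4 of the 5 genes, Araf, Braf, Map2k1 and Map2k2. Braf's held 2 matches to the CRE letters TGACGTCA, present in 1.55% of windows, and Araf's, which lies wholly inside its gene record, held 3 CCAAT boxes. These matches describe the letters alone.

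After filtering, 2339 cells of the Lztr1 knockout, 9395 of Rit1-M90I and 7281 of the control were kept, with 27601550, 80021771 and 62517170 UMIs in the same order of libraries. Median depth per kept cell was 9922 UMIs in the Lztr1 knockout, 6604 in Rit1-M90I and 6863 in the control. Pairs of libraries shared 2 to 10 kept barcodes. Lztr1 was at 6.30 CPM (5.40 to 7.31) in the Lztr1 knockout, against 17.2 CPM (16.2 to 18.3) in the control, a ratio of 0.37 (0.31 to 0.43). Lztr1 was at 15.2 CPM in Rit1-M90I. Rit1 was at 11.8 CPM (10.5 to 13.1) in the Lztr1 knockout, 13.5 CPM (12.7 to 14.4) in Rit1-M90I and 8.65 CPM (7.94 to 9.41) in the control, and its counts do not tell M90I from wild-type mRNA. Which exons Cre removes is not stated in the labels, and 3' tags outside them would check nothing. Parentheses give exact 95% intervals, which cover counting error only and neither the spread between cells nor that between mice. With 1 library per genotype no test of genotype was possible, and no p-value is given.

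Cells were gated with 123 markers of 17 populations, and 11 populations had at least 50 cells in each library. A gate takes in cells that resemble the type it is named for and is not a pure type. In the 11, between 4 and 8 markers of each population were at least 2-fold higher than in the other cells of the library, and these markers also set the gate. Gated T cells numbered 52 in the Lztr1 knockout, 284 in Rit1-M90I and 487 in the control, although the sort was negative for CD3. Erythroblasts held 1.03%, 0.893% and 0.650% hemoglobin UMIs in the same order of libraries. Many cells of the monocyte gate, 67 of 160, 315 of 805 and 195 of 446, scored less than 0.25 above its threshold. Ungated cells made up 33.2%, 34.4% and 31.9% of the libraries.

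Over all kept cells, mRNA of the 5 kinases stood at nearly the same level in both mutant libraries as in the control. Araf was at 39.2 CPM (36.9 to 41.6) in the Lztr1 knockout, 39.8 CPM (38.4 to 41.2) in Rit1-M90I and 40.7 CPM (39.2 to 42.3) in the control. Braf was at 26.1 CPM (24.2 to 28.1) in the Lztr1 knockout, 22.5 CPM (21.5 to 23.6) in Rit1-M90I and 25.05 CPM (23.8 to 26.3) in the control. Both RAF genes therefore had knockout and control intervals that overlapped, while those of Braf in Rit1-M90I and the control did not. Map2k1 was at 20.6 CPM (19.0 to 22.4) in the Lztr1 knockout, 20.3 CPM (19.3 to 21.3) in Rit1-M90I and 21.0 CPM (19.8 to 22.1) in the control. Map2k2 was at 114 CPM (110.2 to 118) in the Lztr1 knockout, 107 CPM (104 to 109) in Rit1-M90I and 112 CPM (109 to 114) in the control. Mapk3 was at 44.1 CPM (41.6 to 46.6) in the Lztr1 knockout, 47.7 CPM (46.2 to 49.2) in Rit1-M90I and 45.0 CPM (43.3 to 46.7) in the control. The MEK and ERK genes thus lay within a few CPM of the control in both mutants, Map2k2 lowest and Mapk3 highest in Rit1-M90I.

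**Figure D1:**
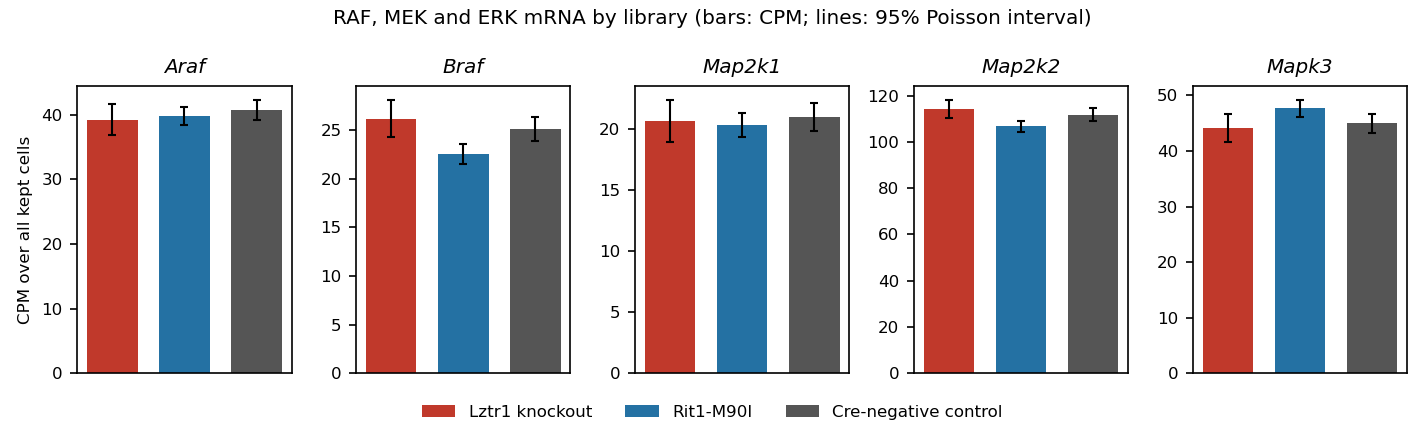
Level in CPM of each kinase gene over all kept cells (y axis, 1 panel per gene with its own scale), with bars for the Lztr1 knockout, Rit1-M90I and control libraries and lines for 95% Poisson intervals. Within a gene the 3 bars are close, as for Araf at 39.2, 39.8 and 40.7 CPM.

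As ratios, Lztr1 knockout over control was 0.96 (0.90 to 1.03) for Araf, 1.04 (0.95 to 1.14) for Braf, 0.98 (0.89 to 1.09) for Map2k1, 1.02 (0.98 to 1.07) for Map2k2 and 0.98 (0.92 to 1.05) for Mapk3. All 5 intervals held 1. Rit1-M90I over control was 0.98 (0.93 to 1.03) for Araf, 0.90 (0.84 to 0.96) for Braf, 0.97 (0.90 to 1.04) for Map2k1, 0.95 (0.92 to 0.99) for Map2k2 and 1.06 (1.01 to 1.11) for Mapk3. Braf and Map2k2 were lower and Mapk3 higher in Rit1-M90I by more than counting error. With each library scaled by median-of-ratios or TMM, in place of its total, the Map2k2 ratio was 0.992 under both. With equal weight for each of the 11 compared populations in place of each UMI, which leaves out all other cells, Braf in Rit1-M90I was at 0.999 of the control. A gene was called changed past 1.5-fold on the scale of log2 of CPM plus 10. None of the 5 was called in either comparison, where 0.657% of 6084 genes were called for the Lztr1 knockout, with 0.565% of 6013 for Rit1-M90I. On that scale the members ran between -0.04 and 0.04 in the Lztr1 knockout, inside the range of -0.12 to 0.16 that held the middle 80% of genes. In Rit1-M90I they ran between -0.11 and 0.07, inside -0.18 to 0.10. The median over all genes was 0.02 for the Lztr1 knockout, with -0.05 for Rit1-M90I. The 2 comparisons share the control library.

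Between populations of a library, the highest level of a member was between 1.87 and 5.66 times its lowest. Mapk3, which encodes the kinase at the foot of the relay, was highest in basophils and mast cells and in conventional dendritic cells and lowest in the erythroid populations, in all 3 libraries. In basophils and mast cells Mapk3 was at 90.3 CPM (73.2 to 110.3) in the Lztr1 knockout, 101 CPM (91.9 to 111) in Rit1-M90I and 81.8 CPM (72.5 to 91.9) in the control. In conventional dendritic cells it was at 85.3, 92.6 and 92.5 CPM in the same order of libraries, and in the monocyte lineage at 72.7, 68.7 and 63.1 CPM. Neutrophil progenitors held 49.3, 45.0 and 51.3 CPM. Erythroid progenitors held 22.9 CPM (19.6 to 26.6) in the Lztr1 knockout, 27.6 CPM (24.9 to 30.6) in Rit1-M90I and 23.2 CPM (20.9 to 25.7) in the control, and erythroblasts 28.4, 22.5 and 27.9 CPM. No library broke this order of myeloid over erythroid cells. Basophils and mast cells over erythroid progenitors gave a Mapk3 ratio of 3.94 (3.04 to 5.09), 3.66 (3.18 to 4.21) and 3.53 (3.01 to 4.13), and the monocyte lineage over erythroid progenitors one of 3.17 (2.53 to 3.97), 2.48 (2.18 to 2.83) and 2.72 (2.32 to 3.18). Stem and multipotent cells lay between, at 44.8, 46.7 and 39.0 CPM. Outside the 11 populations, Mapk3 in plasma cells was at 13.9, 10.1 and 13.4 CPM, with 42 plasma cells in the Lztr1 knockout. Immunoglobulin made up 50.7%, 51.6% and 53.3% of plasma cell UMIs, which lowers the CPM of every other gene there. These plasma cell levels are therefore not set against those of other populations.

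The MEK genes were high in different lineages. Map2k1 was highest in conventional dendritic cells, at 61.5 CPM (41.8 to 87.3) in the Lztr1 knockout, 45.6 CPM (30.7 to 65.0) in Rit1-M90I and 40.3 CPM (26.6 to 58.6) in the control. The monocyte lineage came next at 38.5, 29.0 and 36.3 CPM, with intervals that overlapped those of conventional dendritic cells in every library. Erythroid progenitors held 13.02, 13.2 and 12.98 CPM of Map2k1 and erythroblasts 11.8, 8.05 and 8.37 CPM. The monocyte lineage over erythroid progenitors gave 2.96 (2.17 to 4.02), 2.20 (1.81 to 2.67) and 2.80 (2.27 to 3.45). In the Lztr1 knockout a stricter gate, which left 9 monocyte-lineage cells, gave 5.73, and joint clusters in place of gates gave 1.81. Map2k2 was highest in erythroblasts, at 157 CPM (136 to 180.4) in the Lztr1 knockout, 157 CPM (139 to 176) in Rit1-M90I and 166 CPM (142 to 192) in the control. Erythroid progenitors followed at 146 CPM (137 to 155), 142 CPM (135 to 148) and 148 CPM (142 to 154). In each library the Poisson interval of erythroid progenitors lay above that of the next population in the order. In the Lztr1 knockout it still overlapped those of T cells (69.9 to 162) and innate lymphoid precursors (71.4 to 151), which ranked lower with fewer UMIs. Basophils and mast cells held 70.6, 76.9 and 82.7 CPM of Map2k2. Erythroid progenitors over basophils and mast cells gave 2.06 (1.63 to 2.64), 1.84 (1.64 to 2.07) and 1.79 (1.58 to 2.03). Against the monocyte lineage erythroid progenitors gave 1.45 (1.25 to 1.68), 1.41 (1.30 to 1.52) and 1.41 (1.28 to 1.56). Erythroblasts over erythroid progenitors gave 1.08, 1.11 and 1.12 with intervals that all held 1.

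**Figure D2:**
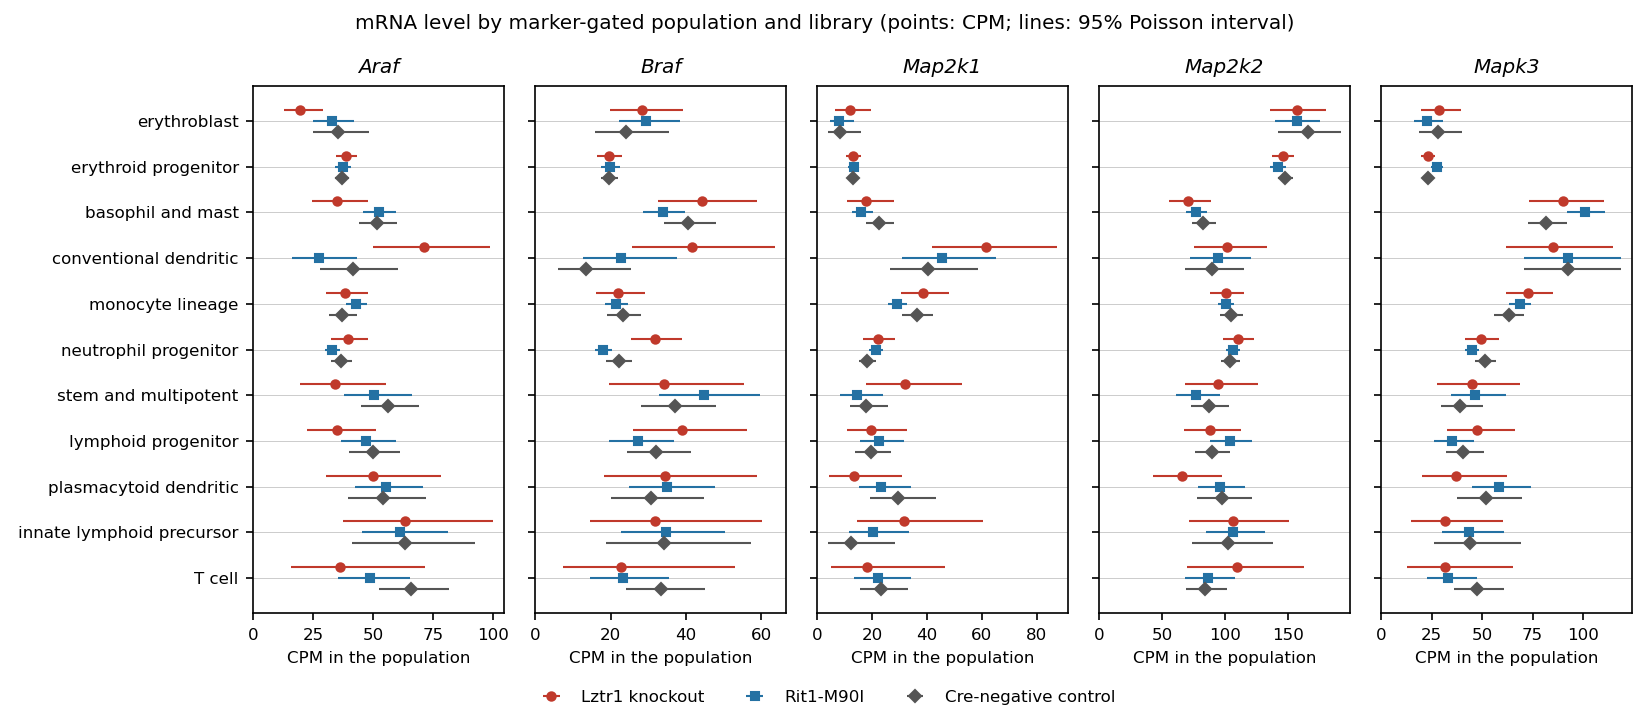
Level in CPM (x axis, 1 panel per gene with its own scale) in each of the 11 gated populations (rows), with a point for each library and its 95% Poisson interval. Mapk3 is lowest and Map2k2 highest in the 2 erythroid rows, while the order of rows for Araf differs between libraries.

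Map2k2 UMIs as a share of the UMIs of both MEK genes do not depend on the total of a population. Since tags of different genes may be captured unequally, the share is compared between populations and not read as an amount. In erythroblasts it was 93.0% (88.7 to 96.0) in the Lztr1 knockout, 95.1% (92.1 to 97.2) in Rit1-M90I and 95.2% (91.1 to 97.8) in the control. Erythroid progenitors stood at 91.8%, 91.5% and 91.9%. The monocyte lineage stood at 72.4% (66.9 to 77.4), 77.6% (75.2 to 79.9) and 74.2% (70.7 to 77.6), and conventional dendritic cells at 62.2% (50.8 to 72.7), 67.4% (56.8 to 76.8) and 69.0% (58.1 to 78.5). The erythroid and the monocyte and dendritic intervals did not overlap in any library. Over all kept cells the share was 84.7% (83.5 to 85.8) in the Lztr1 knockout, 84.0% (83.3 to 84.7) in Rit1-M90I and 84.2% (83.4 to 85.0) in the control, so the genotypes overlapped where the lineages did not.

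**Figure D3:**
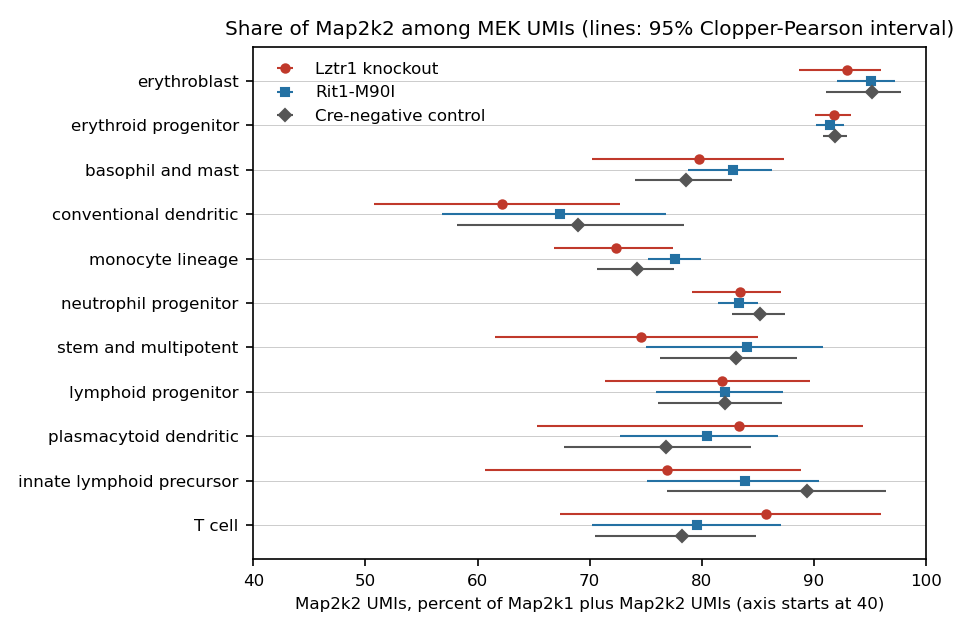
Map2k2 UMIs as a percent of Map2k1 plus Map2k2 UMIs (x axis, starting at 40) in each population (rows), by library, with 95% Clopper-Pearson intervals. Erythroblasts and erythroid progenitors lie between 91.5% and 95.2% and conventional dendritic cells between 62.2% and 69.0%.

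The RAF genes kept less of a common order of populations between libraries. Braf was at 44.2 CPM (32.5 to 58.8) in Lztr1 knockout basophils and mast cells, 33.8 CPM (28.6 to 39.7) in those of Rit1-M90I and 40.6 CPM (34.1 to 47.9) in those of the control. Stem and multipotent cells held 34.2, 44.7 and 37.0 CPM, and erythroid progenitors 19.5, 19.9 and 19.5 CPM. Basophils and mast cells over erythroid progenitors gave a Braf ratio of 2.26 (1.59 to 3.17), 1.70 (1.38 to 2.09) and 2.08 (1.69 to 2.55). Araf had no population that led in every library. Its highest population was the conventional dendritic cells in the Lztr1 knockout at 71.4 CPM, the innate lymphoid precursors in Rit1-M90I at 61.5 CPM and the T cells in the control at 66.0 CPM. Its lowest was the erythroblasts in the Lztr1 knockout at 19.7 CPM, the conventional dendritic cells in Rit1-M90I at 27.3 CPM and the erythroblasts in the control at 35.3 CPM. Araf UMIs were 60.0% (57.7 to 62.3) of Araf and Braf UMIs over all cells of the Lztr1 knockout, 63.9% (62.5 to 65.2) in Rit1-M90I and 61.9% (60.4 to 63.4) in the control.

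These differences can be set against other genes. On the scale of log2 of CPM plus 10, the distance between the highest and lowest population was larger for Mapk3 than for 57.5%, 67.7% and 61.5% of 5613 genes, and for Map2k1 than for 61.9%, 62.4% and 54.3% (Lztr1 knockout, Rit1-M90I, control). It was larger for Map2k2 than for 28.5%, 22.0% and 19.8% of genes, so its erythroid lead went with a range below that of most genes. For Araf it was larger than for 49.2%, 21.6% and 9.23% of genes, and for Braf than for 12.3%, 23.9% and 32.9%. Genes were not matched for level here, and counting error widens the range of genes with few UMIs. Of the 55 pairs of populations, 17 differed past 1.5-fold in the same direction in all 3 libraries for Mapk3, 10 for Map2k1, 6 for Map2k2, 2 for Araf and 0 for Braf. Over 5613 genes 23.1% of pairs did so, with a median of 10 pairs per gene, so Mapk3 was above that median, Map2k1 at it and the other 3 below it. Pairs whose Poisson intervals lay apart in the same direction in all 3 libraries numbered 17 for Mapk3, 15 for Map2k2, 8 for Map2k1, 2 for Braf and 0 for Araf. Over the same genes 25.6% of pairs lay apart, with a median of 12 pairs per gene, and this count grows with the UMIs of a gene. Erythroid populations were the higher of the pair in 14 of the 15 for Map2k2 and in 0 of the 17 for Mapk3, where they were the lower in 9. No such count was taken over all genes. Intervals also narrow with the UMIs of a population, 7374748 in erythroid progenitors and 220125 in T cells of the Lztr1 knockout. These erythroid counts therefore give the direction of the pairs only.

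Across the 11 populations, levels of Mapk3 followed one another between libraries with Pearson's r of 0.90 (Lztr1 knockout and Rit1-M90I), 0.90 (Lztr1 knockout and control) and 0.93 (Rit1-M90I and control). Map2k2 gave 0.78, 0.78 and 0.95 in the same order of pairs, Map2k1 0.75, 0.57 and 0.86, Braf 0.47, 0.22 and 0.70, and Araf 0.09, 0.29 and 0.80. Both pairs with the Lztr1 knockout, the library of fewest cells, were lower than the third for every member. Within libraries, Map2k2 against Mapk3 gave -0.55 in the Lztr1 knockout, -0.67 in Rit1-M90I and -0.69 in the control, and Map2k1 against Mapk3 gave 0.61, 0.63 and 0.80. Braf against Ndufb2, whose end it overlaps, gave -0.13 in the Lztr1 knockout, -0.47 in Rit1-M90I and -0.55 in the control. Whether Braf counts hold reads of Ndufb2 was not tested. These r values describe 11 points that share a library and differ in depth, and carry no p.

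Depth differed between populations, with a median of 3156.5 UMIs per basophil or mast cell and 22434.5 per erythroid progenitor of the Lztr1 knockout. The fraction of cells with at least 1 Mapk3 UMI followed that depth, at 29.3%, 27.3% and 23.1% of basophils and mast cells and 36.1%, 34.5% and 34.0% of erythroid progenitors (Lztr1 knockout, Rit1-M90I, control). With each cell thinned to 2000 UMIs, the fractions were 14.9%, 18.3% and 17.2% against 4.49%, 5.40% and 4.78%, which follows the order of CPM. Thinning left out 31, 336 and 296 shallower basophils and mast cells and 4, 47 and 1 erythroid progenitors. No population is known to lack these kinases, so a background of free RNA could not be measured for them.

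The mutants were then compared with the control within each population. Of the 55 combinations of gene and population, 51 had at least 20 CPM in one of the libraries compared. In the Lztr1 knockout 7 of 51 were called, or 13.7%, where 8.95% of all gene and population combinations were called. In Rit1-M90I 0 of 51 were called, where the background was 4.18%. The 7 calls rested on few UMIs, and 5 of them passed the filter of 20 CPM only through the library in which the level was higher, so their number supports nothing. Araf was at 71.4 CPM in conventional dendritic cells of the Lztr1 knockout, against 41.8 CPM in those of the control, a ratio of 1.71 (1.01 to 2.91) from 36 and 28 UMIs. Braf was at 41.6 CPM in the same knockout cells, against 13.4 CPM in the control, a ratio of 3.10 (1.36 to 7.69) from 21 and 9 UMIs. These gates held 64 knockout and 102 control cells, and 11.6% of genes were called there. With doublets kept the Araf ratio was 1.56 (0.938 to 2.61) and no longer called. Braf, which passed the filter only through the knockout, was called in all 7 alternatives run. Calls in the alternatives used no filter of 20 CPM and came from overlapping sets of cells, so this adds no support. In erythroblasts Araf was at 19.7 CPM in the Lztr1 knockout, against 35.3 CPM in the control, a ratio of 0.558 (0.323 to 0.949) from 25 and 38 UMIs, where 4.2% of genes were called. That call was kept in 3 of 8 alternatives, and with joint clusters in place of gates the ratio was 0.833 (0.571 to 1.21). The other 4 ratios had intervals that held 1. They were 0.551 (0.230 to 1.14) for Araf in T cells, where 23.1% of genes were called, and for Map2k1 2.61 (0.784 to 9.90) in innate lymphoid precursors, 1.80 (0.888 to 3.50) in stem and multipotent cells and 0.449 (0.134 to 1.19) in plasmacytoid dendritic cells. In those 3 populations 24.3%, 8.58% and 13% of genes were called, in the same order. With joint clusters the Map2k1 ratios turned to 0.944 in innate lymphoid precursors and 0.949 in stem and multipotent cells, and with a stricter gate the ratio in plasmacytoid dendritic cells was 0.781. The Araf call in T cells was kept in 6 of 8 alternatives, and the Map2k1 call in stem and multipotent cells in 2 of 8.

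**Figure D4:**
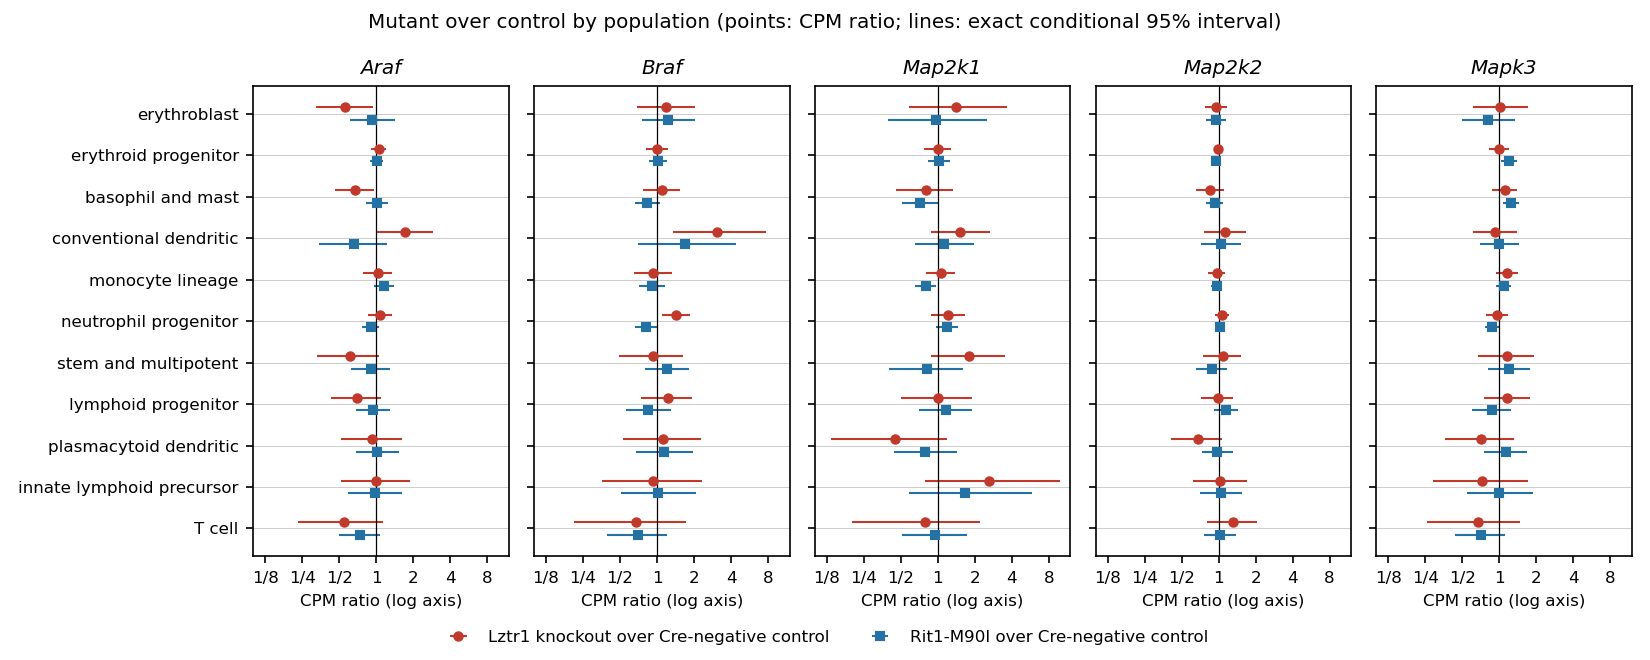
Ratio of mutant to control CPM (x axis, log scale) for each kinase gene in each population (rows), with 95% exact conditional intervals, for the Lztr1 knockout and Rit1-M90I. Most intervals hold 1, and the Braf ratio of 3.10 in conventional dendritic cells of the Lztr1 knockout is farthest above it.

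Some ratios short of 1.5-fold had intervals that left out 1, but only those of Mapk3 in Rit1-M90I basophils and mast cells and erythroid progenitors did so in all 8 alternatives run. In the Lztr1 knockout, Araf was lower in basophils and mast cells at 34.8 CPM, against 51.7 CPM in the control, a ratio of 0.673 (0.459 to 0.964), and Braf was higher in neutrophil progenitors at 31.7 CPM, against 22.1 CPM in the control, a ratio of 1.43 (1.09 to 1.87). In Rit1-M90I, Braf in neutrophil progenitors was at 0.81 (0.662 to 0.994) of the control, so the mutants lay on either side of it. Map2k1 in Rit1-M90I was at 0.712 (0.509 to 0.996) of the control in basophils and mast cells and at 0.799 (0.657 to 0.975) in the monocyte lineage. Mapk3 in Rit1-M90I was at 1.24 (1.06 to 1.44) of the control in basophils and mast cells, 1.19 (1.03 to 1.38) in erythroid progenitors and 0.876 (0.770 to 0.999) in neutrophil progenitors. The others came to hold 1 in 2 to 7 of the 8 alternatives. All alternatives used the same or overlapping sets of cells, so an interval that stayed off 1 adds no support. These intervals are not adjusted for their number, over 5 genes, 11 populations and 2 comparisons. Within the 11 populations no interval of Map2k2 left out 1 in either comparison. Its ratio there ran between 0.676 and 1.30 in the Lztr1 knockout and between 0.881 and 1.16 in Rit1-M90I.

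Cycling cells, gated by Mki67, Top2a and other mitotic genes, could be compared with other cells only in erythroid progenitors, with 93 cycling cells in the Lztr1 knockout, 251 in Rit1-M90I and 264 in the control. Map2k2 in cycling over other cells gave 1.07, 1.06 and 1.06, with intervals that held 1. The Araf ratio was 1.35 (1.06 to 1.72) in the Lztr1 knockout, 1.04 in Rit1-M90I and 0.858 in the control. Of the 15 ratios of member and library, this one alone had an interval that left out 1.

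Among 5570 genes, those whose levels followed each kinase most closely over the 11 populations were ranked by the lowest r of the 3 libraries. For Mapk3 they were Il3ra, the interleukin 3 receptor alpha chain, at 0.92, Atp6v0b at 0.87 and Cd300a at 0.87. For Map2k2 they were Dap3 at 0.90, Tbrg4 at 0.89 and Psmd3, a proteasome subunit, at 0.88. For Map2k1 they were Mtpn at 0.79, Hps3 at 0.78 and Flna, an actin crosslinker, at 0.78. For Araf they were Gbf1 at 0.75, Prr12 at 0.72 and Baz2a at 0.71, and for Braf Crlf3 at 0.71, Slc38a2 at 0.70 and Ubn1 at 0.65. These are the highest of 5570 genes over 11 points, and the r that chance alone would give was not computed. Araf and Braf themselves followed a common order between libraries least of the members, as given above.

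Other genes of the relay and of related kinase relays also stood near the control over all cells, with 0 genes of any list called in either comparison. Over all genes 0.657% were called for the Lztr1 knockout, with 0.565% for Rit1-M90I, so 0 in these short lists says little. Mapk6, an atypical ERK, was at 24.7 CPM in the Lztr1 knockout, 23.96 CPM in Rit1-M90I and 24.3 CPM in the control. Of the scaffolds and regulators, 10 of 12 were measured, with a median log2 ratio of 0.03 for the Lztr1 knockout, with -0.02 for Rit1-M90I. The highest in the Lztr1 knockout were Ywhae, a 14-3-3 protein that binds RAF, at 1.15 (1.13 to 1.18), and Shoc2, which helps to activate RAF, at 1.12 (1.03 to 1.22), and the lowest were Iqgap1 at 0.936 and Pebp1, an inhibitor of RAF, at 0.943. In Rit1-M90I the highest were Ywhae at 1.06 and Hsp90ab1 at 1.05 and the lowest Ppp1cb at 0.914 and Lamtor3 at 0.943.

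Downstream of ERK, 5 of 8 effectors were measured, with a median log2 ratio of -0.03 in both comparisons. In the Lztr1 knockout the ERK-activated kinases Mknk2 and Rps6ka1 were highest at 1.04 and 1.02, and Rps6ka3 and the ETS factor Elk4 lowest at 0.933 and 0.933. In Rit1-M90I Rps6ka1 at 1.15 (1.10 to 1.19) and Elk3 at 1.14 (1.08 to 1.21) were highest, and Mknk2 at 0.880 (0.847 to 0.914) and Elk4 at 0.878 (0.834 to 0.924) lowest. Of the JNK and p38 kinases and their activators, which form parallel relays, 7 of 10 were measured, with a median of 0.00 for the Lztr1 knockout, with -0.12 for Rit1-M90I. Mapk8 at 1.08 and Mapk9 at 1.07 were highest and Map2k5, which activates the ERK5 kinase, at 0.868 and Mapk14 at 0.956 lowest in the Lztr1 knockout. Map2k3 at 0.950 and Mapk8 at 0.931 were highest and Map2k7 at 0.850 and Mapk9 at 0.875 lowest in Rit1-M90I. Of the other MAP3Ks, 4 of 8 were measured, with medians of -0.03 and -0.06 in the same order of comparisons. Map3k7 at 1.04 and Map3k1 at 0.976 were highest and Map3k4 at 0.926 and Map3k11 at 0.970 lowest in the Lztr1 knockout. Map3k1 at 1.01 and Map3k11 at 0.957 were highest and Map3k7 at 0.926 and Map3k4 at 0.933 lowest in Rit1-M90I.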

How the data were processed

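Raw UMI counts per gene and cell barcode, 1 matrix per library, were deposited by the authors and made with Cell Ranger 6.1.1, per the file headers. Seurat 4.1.0 and the mm10 build are named in the submitters' processing notes. Cell calling, annotation release and strand setting were not stated. Cells with at least 1000 UMIs, at least 500 genes and at most 10% mitochondrial UMIs were kept, and doublets found by Scrublet (83 in the Lztr1 knockout, 422 in Rit1-M90I and 242 in the control) were removed. Each remaining cell was scored on each of 17 marker panels as the mean z-score, over all libraries, of its log-normalized markers, and gated to a panel with a score of at least 1, at least 2 markers with a UMI and a lead of at least 0.25. Counts were summed per library and population, and CPM taken of all UMIs.

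Since there was 1 library per genotype, no test was made. Intervals are exact Poisson, conditional binomial or Clopper-Pearson at 95%. A gene needed 20 CPM in 1 of the libraries compared, and was called past 1.5-fold with a pseudocount of 10. Named genes are the members, Lztr1 and Rit1, the 2 highest and 2 lowest of each pathway list, and the 3 genes most like each member. Some genes that this rule names are not reported here. The members, lists and gates were chosen with earlier results of these data known. Alternatives were other scalings, pseudocounts, filters, gates and joint clusters. The scripts were tested on simulated data. Software was Python 3.11.15, scanpy 1.11.5, numpy 2.4.6, scipy 1.17.1, pandas 2.3.3, matplotlib 3.10.9 and, for TMM factors only, edgeR 4.0.16 in R 4.3.3.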

Additional observations from a re-analysis of the deposited data

Results flagged for a closer look

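The Lztr1 knockout and control ratio of Araf ran in opposite directions in different populations, with intervals on either side of 1. It was 1.71 in conventional dendritic cells, from 36 and 28 UMIs, against 0.558 in erythroblasts and 0.673 in basophils and mast cells. The Rit1-M90I and control ratio of Mapk3 did the same, at 1.24 in basophils and mast cells and 1.19 in erythroid progenitors, against 0.876 in neutrophil progenitors. Each Araf interval came to hold 1 under some alternative. With doublets kept it was 1.56 (0.938 to 2.61) in conventional dendritic cells and 0.773 (0.550 to 1.07) in basophils and mast cells, and with joint clusters it was 0.833 (0.571 to 1.21) in erythroblasts. The Mapk3 intervals in basophils and mast cells and in erythroid progenitors left out 1 in all 8 alternatives run, and that in neutrophil progenitors in 2 of 8. These alternatives used the same or overlapping sets of cells, so this adds no support. Whether these ratios differ between populations was not tested, since each rests on 1 library per genotype.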

How the results depend on the processing

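No paired analysis was possible because each genotype has 1 library, and for the same reason no replicate could be left out. With joint clusters in place of gates, Map2k1 in the Lztr1 knockout over control turned to 0.949 in stem and multipotent cells and 0.944 in innate lymphoid precursors. Clusters also moved the monocyte lineage over erythroid progenitors to 2.47, 2.003 and 2.27 for Mapk3 and to 1.81, 1.76 and 1.87 for Map2k1 (Lztr1 knockout, Rit1-M90I, control). No cluster stood for conventional or plasmacytoid dendritic cells, so they have no such value. A stricter gate left 9 monocyte-lineage cells in the Lztr1 knockout and moved its Mapk3 ratio to 4.33, its Map2k1 ratio to 5.73 and its Map2k2 ratio of erythroid progenitors over the monocyte lineage to 1.73. In the control it moved Mapk3 in basophils and mast cells over erythroid progenitors to 4.15, and Map2k2 in erythroid progenitors over basophils and mast cells to 2.13. With abundant gene classes left out of the total, chosen after seeing the data, that Map2k2 ratio was 2.11 in Rit1-M90I and 2.04 in the control. These lineage ratios for Mapk3, Map2k1, Map2k2 and Braf kept their direction in every alternative run. Over all cells, Map2k2 in Rit1-M90I over control was 0.992 under median-of-ratios, TMM and equal weight for each population. Equal weight also moved Araf to 0.873 and Map2k1 to 1.16 in the Lztr1 knockout, and Araf to 0.925 and Braf to 0.999 in Rit1-M90I. Genes past 1.5-fold numbered 64 for the Lztr1 knockout, with 63 for Rit1-M90I, with a pseudocount of 1 CPM, and 14 and 10 with 50 CPM, against 40 and 34. The share of calls that were higher in Rit1-M90I was 74.3% under median-of-ratios and TMM, against 58.8%, and 80% with 50 CPM. In the Lztr1 knockout 17 calls were higher and 39 lower without abundant classes, and with 50 CPM the majority turned, to 10 higher and 4 lower, against 16 and 24. The cause of these shifts was not tested. Under 50 cells per library, and at the few UMIs of dendritic, T and innate lymphoid gates, depth limits what could be seen.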
